A study of Mus musculus with 9 samples.

Results

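Chemical synapses release transmitter from vesicles that are docked, primed, fused by calcium and then retrieved, and 40 genes that encode this release machinery are described here in cultured cells of the embryonic mouse cortex. The members were a list of gene symbols, chosen with earlier results of these data known. Their counts and medians beside those of all tested genes are therefore a description of a chosen list. Each member was represented by the probe set that carried its symbol alone in the platform annotation, and by the one with the highest mean where a gene had several. All 40 genes had such a probe set, of 22180 genes in all, and 5 of them (Sh3gl2, Syt4, Rab3c, Syp and Bsn) had more than 1. All 40 were among the 13012 genes tested, which were above the median of all probe sets on at least 3 of the 9 arrays. A total of 38 members were above it on all 9 arrays, while Syngr1 was above it on 7 and Doc2b on 6, in each case on every co-culture and neuron array.

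The RNA came from 3 kinds of primary culture of wild-type CD1 mouse cortex, with 3 arrays each, which the labels call biological replicates. In the co-culture, precursors from embryonic day 13 were added to neurons from embryonic day 16 that had been kept for 4 days, and the mixed cells were kept for 1 more day. Neurons alone came from embryonic day 16 and were kept for 5 days in total (one label gives 4), and precursors alone came from embryonic day 13 and were kept for 1 day. The labels name no transgene and no added agent. The embryo's age and the time in culture differed together between neurons and precursors and cannot be told apart from cell type, and the RNA of the co-culture was not separated by cell. In such bulk RNA, fewer cells of a type and less RNA per cell cannot be told apart.

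At a nerve terminal, SNARE proteins on the vesicle and on the plasma membrane zip together to fuse the membranes, complexins bind the assembled complex, and synaptotagmins sense the calcium that triggers fusion. Scaffolds of the active zone hold vesicles and calcium channels at the release site, and Munc13 proteins prime vesicles for fusion. After fusion, the vesicle membrane is taken back by dynamin, amphiphysin, endophilin, synaptojanin and the clathrin adaptor AP180. Cortical neurons make these proteins as they differentiate, whereas dividing precursors of the ventricular zone have no synapses.

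Of the 40 genes, 32 were higher in neurons than in precursors, 3 were lower and 5 did not pass the test (limma, adjusted p under 0.05 over the 13012 genes tested). In that comparison 28.0% of all tested genes were called higher and 35.2% lower. The members' median log2 difference, neurons minus precursors, was 0.97, against -0.02 for all tested genes. In 19 members the difference was at least 2-fold upward, against 5.49% of all tested genes that were called and at least 2-fold higher. The 3 genes lower in neurons were Slc17a6, Unc13b and Syt13, and the 5 that did not pass were Vamp1, Cplx2, Rims2, Sv2b and Sh3gl2. The arrays of the 2 groups did not overlap in the 35 members called, 32 above and 3 below, and overlapped in the other 5, where 29.5% of all tested genes lay wholly above and 36.9% wholly below.

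Against precursors alone, 25 members were higher in the co-culture and 0 were lower. Without adjustment, limma's p was under 0.05 for 29 higher and 0 lower members. Among all tested genes 8.22% were called higher and 0.200% lower in that comparison, and 15.8% and 2.22% without adjustment. All 25 were also among the 32 higher in neurons. The members' median log2 difference, co-culture minus precursors, was 0.33, against 0.02 for all tested genes, and no member reached 2-fold, which 0.407% of all tested genes did with a call. The co-culture arrays lay wholly above the precursor arrays in 30 members and wholly below in 0, against 19.4% and 5.40% of all tested genes. Against neurons alone, 30 members were lower in the co-culture and 3 were higher, where 24.9% of all tested genes were called lower and 35.7% higher, and the median log2 difference, co-culture minus neurons, was -0.64. These comparisons share the co-culture, neuron and precursor arrays, so they are not independent of each other.

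**Figure D1:**
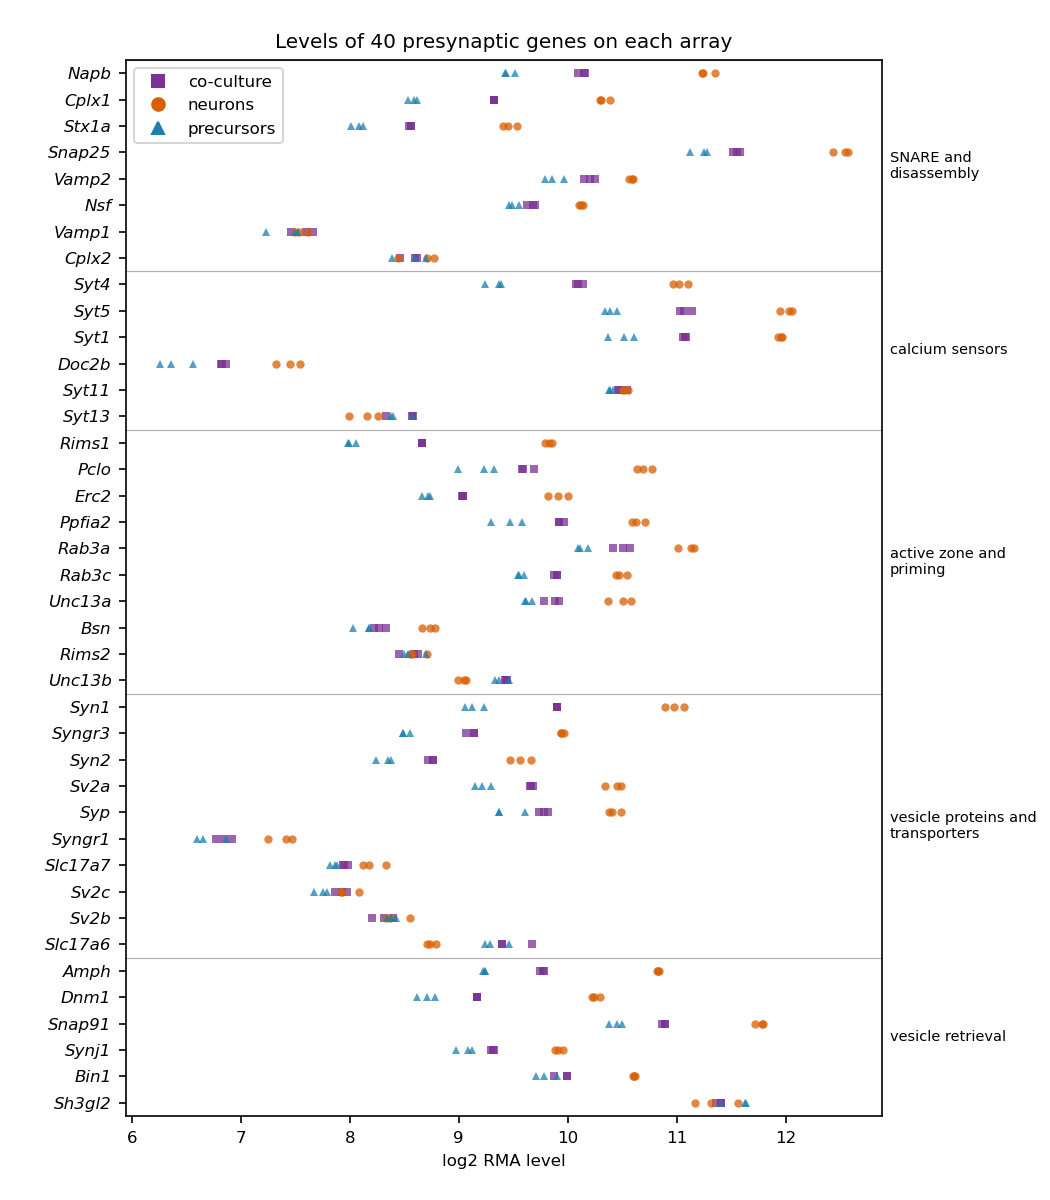
Deposited log2 levels of the 40 genes on each of the 9 arrays, grouped by role and ordered within a role by the difference between neurons and precursors; squares are co-culture, circles neurons and triangles precursors, with 3 arrays each. For most genes the neuron arrays lie to the right, the precursor arrays to the left and the co-culture between them, while Slc17a6, Unc13b and Syt13 have the neuron arrays on the left.

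The labels of the cultures were set against marker lists. Of 9 tested markers of neurons 7 were higher in neurons than in precursors and 0 were lower, with Stmn2 (0.83 on the log2 scale, adjusted p = 5.52e-08) among them, whereas Tubb3, the neuronal tubulin, averaged 11.96 in the co-culture, 11.95 in neurons and 11.96 in precursors. All 9 markers of cycling cells, all 10 of radial precursors and all 8 of intermediate progenitors were lower in neurons than in precursors. In the co-culture 0 of these 27 passed the test against precursors, where 8.22% of all tested genes were called higher and 0.200% lower. The 9 cycling markers nonetheless all lay below precursors there, with log2 differences of -0.18 to -0.09. Of the radial list 1 of 10 lay above precursors, and of the intermediate list 2 of 8. Markers that were higher in the co-culture than in precursors were 3 of the 9 of neurons (Nefl, Stmn2 and the member Snap25), Sst (1.46-fold, adjusted p = 0.0348) and Gad1 (1.23-fold, adjusted p = 0.00764) of the GABAergic list and Sparcl1 (2.17-fold, adjusted p = 0.00708) of the astrocyte list. The summed level of the cycling list was 13.39 to 13.45 on the co-culture arrays, 11.27 to 11.51 on the neuron arrays and 13.50 to 13.58 on the precursor arrays (log2 of the summed linear levels). That of the 10 neuron markers, which include the member Snap25, was 14.52 to 14.53 in the co-culture, 14.87 to 14.92 in neurons and 14.35 to 14.37 in precursors (log2 of the sum as before). The precursor cultures were thus not free of neuronal markers, with Stmn2 at a mean of 12.02 and Dcx at 11.85 there, on arrays whose medians were 6.77 to 6.78. Of 9 markers of GABAergic cells 5 were higher in neurons and 3 were lower, with Sst at 1.40, Gad1 at 0.71 and Gad2 at -0.25 on the log2 scale. Of 5 tested astrocyte markers 3 were higher and 2 lower, of 6 microglial ones 1 and 3, of 5 of the oligodendrocyte lineage 0 and 1 (0 higher at an unadjusted p under 0.05 in limma) and of 7 endothelial and mural ones 0 and 5. Of the astrocyte list Gfap, Aqp4 and S100b lay below the level needed for testing, as did Csf1r, P2ry12 and Ptprc of the microglial list and Pdgfra and Sox10 of the oligodendrocyte list. The part of these cell types in the differences below was not tested.

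Most of the core of the fusion machinery was higher in neurons. Of the 8 genes for SNARE proteins and the proteins that bind or take apart their complex, 6 were higher in neurons than in precursors and the same number were higher in the co-culture than in precursors, with 0 lower in either. Napb encodes beta-SNAP, the adaptor through which the ATPase NSF takes spent SNARE complexes apart. Its level was 10.16, 10.15 and 10.09 on the co-culture arrays, 11.35, 11.23 and 11.24 on the neuron arrays and 9.52, 9.42 and 9.43 on the precursor arrays. The arrays of the 3 groups did not overlap, and Napb was 3.52-fold higher in neurons than in precursors (log2 difference 1.81, SE 0.05, adjusted p = 3.14e-09) and 1.60-fold higher in the co-culture (log2 difference 0.68, SE 0.05, adjusted p = 3.11e-05). Nsf itself stood at 9.70, 9.68 and 9.63 on the co-culture arrays, 10.14, 10.10 and 10.12 on the neuron arrays and 9.46, 9.49 and 9.55 on the precursor arrays. Its differences from precursors were smaller, 0.62 in neurons (adjusted p = 9.75e-07) and 0.17 in the co-culture (adjusted p = 0.037, which became 0.0764 with the replicate number as a block). The Nsf call in the co-culture was also lost, at adjusted p = 0.0601 to 0.154, without co-culture replicate 1, 2 or 3 or precursor replicate 1 or 2.

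Complexin 1 and complexin 2, small proteins that clamp and promote fusion, had different patterns. Cplx1 was at 9.32 on all 3 co-culture arrays, at 10.39, 10.30 and 10.31 on the neuron arrays and at 8.53, 8.62 and 8.59 on the precursor arrays. It was 3.37-fold higher in neurons than in precursors (log2 difference 1.75, SE 0.044, adjusted p = 1.87e-09) and 1.66-fold higher in the co-culture (adjusted p = 8.19e-06). Cplx2 was at 8.60, 8.46 and 8.62 in the co-culture, 8.77, 8.44 and 8.71 in neurons and 8.70, 8.39 and 8.60 in precursors. These arrays overlapped throughout, and the difference of 0.07 between neurons and precursors did not pass the test (SE 0.1, adjusted p = 0.558), nor did that of 0.00 in the co-culture (adjusted p = 0.998).

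The target-membrane SNAREs Stx1a (syntaxin 1A) and Snap25 followed the pattern of Napb. Stx1a was measured at 8.56, 8.54 and 8.56 on the co-culture arrays, 9.45, 9.41 and 9.53 on the neuron arrays and 8.12, 8.08 and 8.01 on the precursor arrays. Snap25 was measured at 11.55, 11.58 and 11.52 on the co-culture arrays, 12.57, 12.44 and 12.55 on the neuron arrays and 11.12, 11.25 and 11.28 on the precursor arrays. In both genes the co-culture lay wholly between the other two groups. The fold differences from precursors were 2.63 for Stx1a and 2.47 for Snap25 in neurons (adjusted p = 9.72e-09 and 3.67e-08), and 1.40 and 1.26 in the co-culture (adjusted p = 0.000179 and 0.00479). Of the vesicle SNAREs, Vamp2 (synaptobrevin 2) was at 10.15, 10.25 and 10.20 on the co-culture arrays, 10.56, 10.60 and 10.59 on the neuron arrays and 9.79, 9.97 and 9.86 on the precursor arrays. It was 1.63-fold higher in neurons than in precursors (log2 difference 0.71, SE 0.053, adjusted p = 1.75e-06) and 1.25-fold higher in the co-culture (adjusted p = 0.00432). Vamp1, its close relative, was at 7.46, 7.60 and 7.66 on the co-culture arrays, 7.50, 7.53 and 7.62 on the neuron arrays and 7.23, 7.52 and 7.50 on the precursor arrays. These values overlapped, and neither neurons (0.13, adjusted p = 0.196) nor the co-culture (0.16, adjusted p = 0.405) passed the test against precursors.

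Among the 6 calcium sensors and related synaptotagmins, 5 were higher in neurons than in precursors and 1, Syt13, was lower. The co-culture was higher than precursors in 4 and lower in 0. Syt1, the main sensor of fast synchronous release, was at 11.06, 11.09 and 11.08 on the co-culture arrays, 11.97, 11.93 and 11.96 on the neuron arrays and 10.52, 10.37 and 10.61 on the precursor arrays. Neurons exceeded precursors 2.74-fold (log2 difference 1.45, SE 0.059, adjusted p = 2.61e-08), and the co-culture did so 1.49-fold (adjusted p = 0.00024). Syt4, a synaptotagmin found on dense-core vesicles, was at 10.14, 10.09 and 10.08 on the co-culture arrays, 11.10, 11.02 and 10.97 on the neuron arrays and 9.37, 9.24 and 9.39 on the precursor arrays. This was the largest difference of the group, 3.24-fold in neurons (log2 difference 1.70, SE 0.054, adjusted p = 6.18e-09) and 1.70-fold in the co-culture (adjusted p = 2.13e-05). For Syt5, another member of the family, the arrays read 11.07, 11.14 and 11.03 on the co-culture arrays, 12.03, 12.06 and 11.95 on the neuron arrays and 10.34, 10.39 and 10.45 on the precursor arrays. The fold difference from precursors was 3.08 in neurons (adjusted p = 6.11e-09) and 1.61 in the co-culture (adjusted p = 3.34e-05).

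Doc2b, a high-affinity calcium sensor linked to spontaneous and asynchronous release, was at 6.86, 6.82 and 6.83 on the co-culture arrays, 7.45, 7.54 and 7.32 on the neuron arrays and 6.36, 6.56 and 6.26 on the precursor arrays. All precursor arrays were below the array median, and the difference of 2.05-fold in neurons (log2 difference 1.04, SE 0.079, adjusted p = 1.86e-06) is therefore one that can be understated near the dim end of the scale. The co-culture was 1.36-fold higher than precursors (adjusted p = 0.00666). Syt11 and Syt13 had the smallest differences of the group between neurons and precursors. Syt11 was at 10.54, 10.47 and 10.46 on the co-culture arrays, 10.52, 10.55 and 10.51 on the neuron arrays and 10.39, 10.42 and 10.38 on the precursor arrays, a difference of 0.12 between neurons and precursors (adjusted p = 0.0237). Without a filter on dim genes that adjusted p became 0.0592, and with each array centred on its median it became 0.0512; without neuron replicate 2, precursor replicate 1 or precursor replicate 3 it was 0.053 to 0.0673. Syt13 was at 8.57, 8.33 and 8.58 on the co-culture arrays, 8.16, 7.99 and 8.26 on the neuron arrays and 8.57, 8.38 and 8.40 on the precursor arrays. Neurons were lower than precursors and lay wholly below them, with a log2 difference of -0.31 (SE 0.091, adjusted p = 0.0128), and the adjusted p was 0.0511 without precursor replicate 1. The co-culture was 1.28-fold higher than neurons (adjusted p = 0.00694) and differed from precursors by 0.04 (adjusted p = 0.893).

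**Figure D2:**
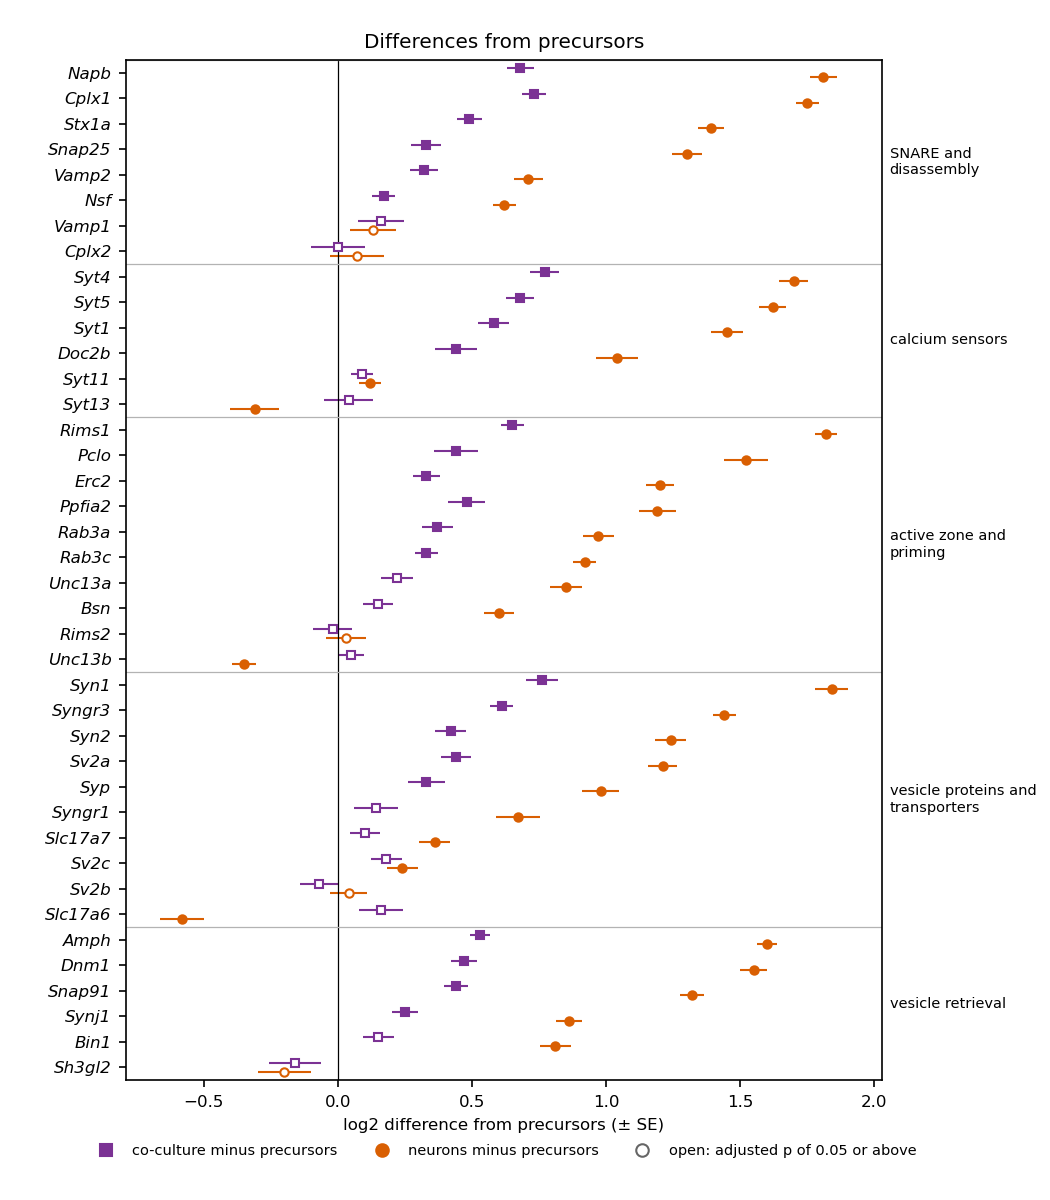
Log2 differences from precursors of the co-culture (squares) and of neurons (circles), with the standard error of the fit as bars and 3 arrays in each group; open symbols have an adjusted p of 0.05 or above. Differences in neurons run from -0.58 (Slc17a6) to 1.84 (Syn1) and those in the co-culture from -0.16 (Sh3gl2) to 0.77 (Syt4).

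Scaffolds and priming factors of the active zone showed the same direction with exceptions inside gene families. Of 10 genes, 8 were higher in neurons than in precursors, 1 was lower (Unc13b) and 1 did not pass (Rims2), and 6 were higher in the co-culture with 0 lower. Rims1, a scaffold that ties Rab3 on the vesicle to Munc13 and calcium channels, was at 8.66, 8.66 and 8.66 on the co-culture arrays, 9.83, 9.79 and 9.86 on the neuron arrays and 7.99, 8.06 and 7.98 on the precursor arrays. Neurons exceeded precursors 3.53-fold (log2 difference 1.82, SE 0.042, adjusted p = 1.44e-09), and the co-culture did so 1.57-fold (adjusted p = 1.27e-05). Rims2, which encodes a scaffold of the same family, was at 8.59, 8.63 and 8.45 on the co-culture arrays, 8.55, 8.57 and 8.71 on the neuron arrays and 8.53, 8.70 and 8.50 on the precursor arrays. Its arrays overlapped, with a difference of 0.03 between neurons and precursors (SE 0.073, adjusted p = 0.73).

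The Munc13 genes moved in opposite directions. Unc13a (Munc13-1), a main priming factor of glutamatergic synapses of the forebrain, was at 9.78, 9.92 and 9.88 on the co-culture arrays, 10.37, 10.51 and 10.58 on the neuron arrays and 9.61, 9.67 and 9.62 on the precursor arrays. It was 1.80-fold higher in neurons than in precursors (log2 difference 0.85, SE 0.061, adjusted p = 1.25e-06). The co-culture lay wholly above precursors, by 0.22, with an adjusted p of 0.0561, and of 0.0348 with the replicate number as a block, 0.0279 without neuron replicate 1 and 0.0408 without neuron replicate 3. Unc13b (Munc13-2) was at 9.44, 9.43 and 9.42 on the co-culture arrays, 8.99, 9.05 and 9.07 on the neuron arrays and 9.37, 9.33 and 9.46 on the precursor arrays. It was 1.28-fold lower in neurons than in precursors (log2 difference -0.35, SE 0.046, adjusted p = 8.73e-05) and 1.32-fold higher in the co-culture than in neurons (adjusted p = 4.77e-05).

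The giant scaffolds bassoon and piccolo, which organise the cytomatrix of the active zone, were both higher in neurons. Pclo was at 9.59, 9.69 and 9.58 on the co-culture arrays, 10.77, 10.69 and 10.64 on the neuron arrays and 8.99, 9.32 and 9.23 on the precursor arrays. It was 2.87-fold higher in neurons than in precursors (log2 difference 1.52, SE 0.082, adjusted p = 1.76e-07) and 1.36-fold higher in the co-culture (adjusted p = 0.0086). Bsn was at 8.22, 8.33 and 8.27 on the co-culture arrays, 8.66, 8.74 and 8.78 on the neuron arrays and 8.18, 8.03 and 8.18 on the precursor arrays. Its difference in neurons was 1.51-fold (log2 difference 0.60, SE 0.057, adjusted p = 9.65e-06), and in the co-culture 0.15 with an adjusted p of 0.201. Erc2 (ELKS2, also called CAST) was at 9.04, 9.03 and 9.04 on the co-culture arrays, 9.82, 10.00 and 9.91 on the neuron arrays and 8.74, 8.66 and 8.72 on the precursor arrays. Ppfia2 (liprin-alpha-2), an adaptor that recruits scaffolds to the active zone, was at 9.92, 9.97 and 9.92 on the co-culture arrays, 10.71, 10.59 and 10.63 on the neuron arrays and 9.30, 9.58 and 9.47 on the precursor arrays. In both genes the 3 groups were fully apart, with neurons 2.30-fold and 2.29-fold above precursors (adjusted p = 3.68e-08 and 2.74e-07) and the co-culture 1.26-fold and 1.40-fold above them (adjusted p = 0.00325 and 0.00176). Of the vesicle GTPases that bind Rims1, Rab3a was at 10.51, 10.57 and 10.42 on the co-culture arrays, 11.13, 11.01 and 11.16 on the neuron arrays and 10.11, 10.19 and 10.09 on the precursor arrays. Rab3c was at 9.90, 9.90 and 9.87 on the co-culture arrays, 10.54, 10.44 and 10.47 on the neuron arrays and 9.55, 9.54 and 9.60 on the precursor arrays. Both were nearly 2-fold higher in neurons, with 1.96 for Rab3a (adjusted p = 3.59e-07) and 1.90 for Rab3c (adjusted p = 6.69e-08), and 1.29-fold and 1.25-fold higher in the co-culture (adjusted p = 0.00322 and 0.00114). The Rab3c call in the co-culture was lost with the mean of its probe sets (0.18, adjusted p = 0.249). Its dimmer probe set gave 0.08 between neurons and precursors (adjusted p = 0.634) and 0.03 between co-culture and precursors (adjusted p = 0.949). A dimmer one of Bsn gave 0.26 between neurons and precursors (adjusted p = 0.00996). Between co-culture and neurons both genes lost their call with these probe sets. The differences were -0.05 for Rab3c (adjusted p = 0.786) and -0.13 for Bsn (adjusted p = 0.144).

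Of the 10 vesicle proteins and transporters, 8 were higher in neurons than in precursors, 1 was lower (Slc17a6) and 1 did not pass (Sv2b), and 5 were higher in the co-culture with 0 lower. Syn1, which encodes synapsin I, a phosphoprotein that tethers vesicles into the reserve pool, had the largest difference of the 40 genes. Its level was 9.90, 9.90 and 9.90 on the co-culture arrays, 10.98, 10.89 and 11.07 on the neuron arrays and 9.06, 9.12 and 9.23 on the precursor arrays. That is 3.59-fold in neurons over precursors (log2 difference 1.84, SE 0.06, adjusted p = 7.04e-09) and 1.70-fold in the co-culture over precursors (log2 difference 0.76, SE 0.06, adjusted p = 4.32e-05). Syn2 (synapsin II) was at 8.76, 8.76 and 8.72 on the co-culture arrays, 9.56, 9.66 and 9.47 on the neuron arrays and 8.38, 8.24 and 8.35 on the precursor arrays. Its fold differences were 2.36 in neurons (adjusted p = 6.22e-08) and 1.34 in the co-culture (adjusted p = 0.0014).

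Syp encodes synaptophysin, an abundant membrane protein of the vesicle. It was at 9.74, 9.82 and 9.78 on the co-culture arrays, 10.49, 10.41 and 10.38 on the neuron arrays and 9.37, 9.37 and 9.61 on the precursor arrays. Neurons were 1.97-fold above precursors (log2 difference 0.98, SE 0.069, adjusted p = 1.05e-06) and the co-culture 1.26-fold (adjusted p = 0.0156), a call that the mean of its 2 probe sets lost (adjusted p = 0.29). That call was also lost, at adjusted p = 0.0523 to 0.073, without co-culture replicate 2 or 3 or precursor replicate 1 or 2. The related synaptogyrins, also proteins of the vesicle membrane, differed from precursors to unequal degrees. Syngr3 was at 9.07, 9.14 and 9.14 on the co-culture arrays, 9.94, 9.94 and 9.97 on the neuron arrays and 8.49, 8.55 and 8.49 on the precursor arrays. Syngr1 was at 6.84, 6.77 and 6.92 on the co-culture arrays, 7.41, 7.47 and 7.25 on the neuron arrays and 6.86, 6.65 and 6.60 on the precursor arrays. In neurons Syngr3 was 2.72-fold and Syngr1 1.59-fold higher (adjusted p = 3.93e-09 and 5.56e-05), and in the co-culture Syngr3 was 1.52-fold higher (adjusted p = 2.11e-05) while Syngr1 differed by 0.14 (adjusted p = 0.45).

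The SV2 glycoproteins, vesicle membrane proteins of the transporter superfamily, split by gene. Sv2a was at 9.65, 9.68 and 9.66 on the co-culture arrays, 10.45, 10.34 and 10.49 on the neuron arrays and 9.15, 9.21 and 9.30 on the precursor arrays. It was 2.31-fold higher in neurons than in precursors (log2 difference 1.21, SE 0.055, adjusted p = 5.48e-08) and 1.36-fold higher in the co-culture (adjusted p = 0.000741). Sv2b was at 8.40, 8.31 and 8.20 on the co-culture arrays, 8.37, 8.33 and 8.55 on the neuron arrays and 8.42, 8.38 and 8.34 on the precursor arrays, with overlapping groups and a difference of 0.04 between neurons and precursors (adjusted p = 0.637). Sv2c was at 7.97, 7.86 and 7.93 on the co-culture arrays, 7.92, 8.08 and 7.93 on the neuron arrays and 7.67, 7.75 and 7.79 on the precursor arrays. It was higher in neurons than in precursors by 0.24 (SE 0.057, adjusted p = 0.00468). The co-culture differed from precursors by 0.18 (adjusted p = 0.0947, 0.0438 with array weights and 0.0481 without neuron replicate 2).

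The vesicular glutamate transporters load glutamate into vesicles, and in the rodent cortex VGLUT2 (Slc17a6) is expressed early while VGLUT1 (Slc17a7) comes to dominate as the cortex matures. Slc17a7 was at 7.95, 7.98 and 7.94 on the co-culture arrays, 8.12, 8.18 and 8.33 on the neuron arrays and 7.86, 7.88 and 7.82 on the precursor arrays. It was 1.28-fold higher in neurons than in precursors (log2 difference 0.36, SE 0.056, adjusted p = 0.000319), and the co-culture differed from precursors by 0.10 (adjusted p = 0.413). Slc17a6 was at 9.40, 9.67 and 9.40 on the co-culture arrays, 8.74, 8.79 and 8.71 on the neuron arrays and 9.24, 9.46 and 9.29 on the precursor arrays. Here the neuron arrays were the lowest, 1.50-fold below precursors (log2 difference -0.58, SE 0.082, adjusted p = 0.000141), and the co-culture was 1.67-fold above neurons (log2 difference 0.74, SE 0.082, adjusted p = 3.36e-05) and differed from precursors by 0.16 (adjusted p = 0.368).

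Promoter windows from 250 bases before to 50 after the annotated start were found in RefSeq (GRCm38.p6) for 31 of the 40 genes. Those of Syn1, the gene with the largest difference, of Sh3gl2, the other member that holds the cAMP response element palindrome, and of the 2 glutamate transporters with opposite directions are printed 5′ to 3′ on the gene's strand. The windows are chrX:20920869-20921168 (minus strand) for Syn1, chr4:85205206-85205505 (plus) for Sh3gl2, chr7:51621580-51621879 and chr7:51624387-51624686 (plus) for the upstream and downstream starts of Slc17a6 and chr7:45163671-45163970 (plus) for Slc17a7. Capitals mark TGACG (the short CRE site, also inside the palindrome TGACGTCA), the GC box GGGCGG and the left part of the RE1 element TTCAGCACC, each on either strand.
Syn1: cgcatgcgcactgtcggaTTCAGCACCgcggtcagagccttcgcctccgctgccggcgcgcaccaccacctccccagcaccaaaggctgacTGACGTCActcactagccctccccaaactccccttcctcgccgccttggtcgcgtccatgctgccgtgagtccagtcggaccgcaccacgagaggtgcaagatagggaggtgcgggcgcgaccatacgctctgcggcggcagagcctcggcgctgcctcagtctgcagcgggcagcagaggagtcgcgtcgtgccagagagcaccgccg
Sh3gl2: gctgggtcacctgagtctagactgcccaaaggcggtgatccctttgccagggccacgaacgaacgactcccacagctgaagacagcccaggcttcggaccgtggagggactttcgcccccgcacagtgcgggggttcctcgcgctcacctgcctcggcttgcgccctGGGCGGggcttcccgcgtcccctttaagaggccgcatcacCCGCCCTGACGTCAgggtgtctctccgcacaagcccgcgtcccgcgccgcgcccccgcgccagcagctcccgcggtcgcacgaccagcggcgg
Slc17a6 upstream start: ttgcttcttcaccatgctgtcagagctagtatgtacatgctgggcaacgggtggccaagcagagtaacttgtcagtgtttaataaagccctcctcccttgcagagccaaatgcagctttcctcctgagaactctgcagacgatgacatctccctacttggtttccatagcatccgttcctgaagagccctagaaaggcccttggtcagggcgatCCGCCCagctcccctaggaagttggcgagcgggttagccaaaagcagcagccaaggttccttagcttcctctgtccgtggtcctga
Slc17a6 downstream start: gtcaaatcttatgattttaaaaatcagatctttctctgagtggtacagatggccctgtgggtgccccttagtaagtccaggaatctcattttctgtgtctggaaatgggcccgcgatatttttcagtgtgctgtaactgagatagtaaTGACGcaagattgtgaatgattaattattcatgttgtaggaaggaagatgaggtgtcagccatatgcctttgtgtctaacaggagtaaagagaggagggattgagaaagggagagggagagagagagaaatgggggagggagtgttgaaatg
Slc17a7: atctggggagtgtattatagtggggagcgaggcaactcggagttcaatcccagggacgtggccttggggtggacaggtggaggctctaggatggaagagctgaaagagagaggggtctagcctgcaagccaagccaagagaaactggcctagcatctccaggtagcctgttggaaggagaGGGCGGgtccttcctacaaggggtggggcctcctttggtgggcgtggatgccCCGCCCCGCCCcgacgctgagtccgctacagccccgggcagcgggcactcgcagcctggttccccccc

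The palindrome TGACGTCA was in the windows of 2 members, or 6.45%, against 2.65% of the 16990 genes with a window, and starts at position -159 in Syn1 and -37 in Sh3gl2. The short CRE site TGACG was in 8 members (25.8%, against 26.8% of all), the GC box in 25 (80.6%, against 49.5%) and TATAAA in 1 (3.23%, against 14.3%). RE1 is the element bound by REST, a repressor of neuronal genes in other cells. The letters searched were TTCAGCACC with at most 1 mismatch and an exact GGACAG 2 bases further on, on both strands. No member's window held them in this form, against 0.0589% of all genes. In the Syn1 window TTCAGCACC is followed 2 bases further on by GGTCAG, which differs from GGACAG in 1 letter and so was not counted. Windows with a mismatch in the right part were not searched for, so a member's window can hold an RE1-like stretch that this count leaves out. The left part alone, with no mismatch, was in Syn1 (at -232) and Unc13a, or 6.45% of members, against 0.512% of all genes; it was searched after the Syn1 window had been read. The GC box was in 1 of the 2 Slc17a6 windows and in that of Slc17a7. These matches describe letters in the windows.

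The machinery that retrieves vesicle membrane was higher in neurons in 5 of its 6 genes, with 0 lower, and in 4 genes in the co-culture, with 0 lower. Amph encodes amphiphysin, which bends the membrane and recruits dynamin. It was at 9.77, 9.78 and 9.75 on the co-culture arrays, 10.82, 10.84 and 10.83 on the neuron arrays and 9.22, 9.24 and 9.24 on the precursor arrays. The 3 groups were far apart relative to their spread, and neurons were 3.03-fold (log2 difference 1.60, SE 0.037, adjusted p = 1.44e-09) and the co-culture 1.45-fold (adjusted p = 2.11e-05) above precursors. Bin1, the related gene that is expressed beyond the brain, was at 9.99, 9.99 and 9.87 on the co-culture arrays, 10.61, 10.62 and 10.60 on the neuron arrays and 9.90, 9.78 and 9.71 on the precursor arrays. It was 1.75-fold higher in neurons (adjusted p = 1.16e-06) and differed by 0.15 in the co-culture (adjusted p = 0.188).

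Dnm1 (dynamin 1), the GTPase that cuts endocytic vesicles from the membrane, was at 9.17, 9.17 and 9.17 on the co-culture arrays, 10.24, 10.22 and 10.30 on the neuron arrays and 8.71, 8.62 and 8.78 on the precursor arrays. Snap91 (AP180), a clathrin adaptor of nerve terminals, was at 10.89, 10.89 and 10.87 on the co-culture arrays, 11.78, 11.79 and 11.72 on the neuron arrays and 10.38, 10.50 and 10.45 on the precursor arrays. Synj1 (synaptojanin 1), the lipid phosphatase that helps shed the clathrin coat, was at 9.31, 9.32 and 9.30 on the co-culture arrays, 9.91, 9.96 and 9.88 on the neuron arrays and 9.12, 9.08 and 8.97 on the precursor arrays. All 3 genes had fully separate groups in the same order. In neurons they were 2.94-fold, 2.50-fold and 1.82-fold higher than in precursors (adjusted p = 6.69e-09, 1.02e-08 and 2.29e-07), and in the co-culture 1.38-fold, 1.35-fold and 1.19-fold higher (adjusted p = 0.000307, 0.000267 and 0.0104). The Synj1 call in the co-culture had an adjusted p of 0.0507 without co-culture replicate 2.

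Sh3gl2, which encodes endophilin A1, a curvature protein that recruits synaptojanin, was the exception, and its 3 probe sets disagreed. The brightest was at 11.36, 11.41 and 11.41 on the co-culture arrays, 11.32, 11.56 and 11.17 on the neuron arrays and 11.40, 11.64 and 11.63 on the precursor arrays. It overlapped between groups and differed by -0.20 between neurons and precursors (SE 0.098, adjusted p = 0.0949). The next was at 8.35, 8.53 and 8.45 on the co-culture arrays, 9.15, 9.27 and 9.15 on the neuron arrays and 7.96, 8.18 and 8.25 on the precursor arrays. By this probe set Sh3gl2 was 2.09-fold higher in neurons than in precursors (log2 difference 1.06, adjusted p = 2.05e-06) and 1.24-fold higher in the co-culture (adjusted p = 0.0424), when 13621 probe sets were fitted singly. The dimmest was above the array median on the 3 neuron arrays only, and so passed the filter through the group where it was high. It was 2.20-fold higher in neurons than in precursors and differed by 0.01 in the co-culture, and its p is not used here. Which transcripts each probe set reads was not analysed. The 3 probe sets of Syt4 had one direction, with log2 differences between neurons and precursors of 1.70, 1.20 and 0.88, of which the last was not tested.

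**Figure D3:**
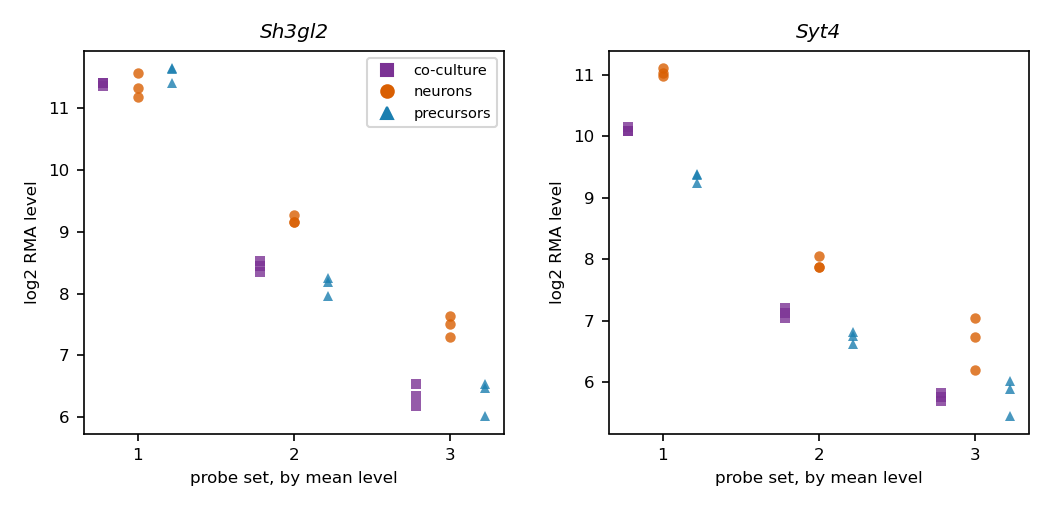
Log2 levels of each probe set of Sh3gl2 (left) and Syt4 (right), numbered by mean level, with squares for co-culture, circles for neurons and triangles for precursors, 3 arrays each. For Sh3gl2 the neuron arrays are above the precursor arrays in probe sets 2 and 3 and among them in probe set 1, while for Syt4 they are above in all 3.

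Members were then paired with related genes, 23 pairs in all, by the change of the within-array log2 ratio of the first gene to the second. The ratio of Snap25 to Snap23, its widely expressed relative, was 2.20 higher in neurons than in precursors on the log2 scale, or 4.61-fold, with Snap25 at 1.30 and Snap23 at -0.90. For Dnm1 against the ubiquitous Dnm2 the change of the ratio was 1.82, for Napb against Napa (alpha-SNAP) 1.81, for Rims1 against Rims2 1.79 and for Ppfia2 against Ppfia1 1.73. The ratio of Unc13a to Unc13b rose 2.30-fold, and that of Slc17a7 to Slc17a6 1.92-fold. The ratio of Cplx2 to Cplx1 changed by -1.68 and that of Sv2b to Sv2a by -1.17, with the gene of the larger difference written second. The sign of a change thus follows the order in which the 2 genes of a pair were written. Neuron and precursor arrays did not overlap in 21 pairs, above in 16 and below in 5 in the order written, and overlapped for Sh3gl2 to Sh3gl1 and for Rab3c to Rab3a. Over all pairs of tested genes the ratios did not overlap in 71.9%. Each non-overlapping pair had a two-sided exact permutation p of 0.1, the smallest that 3 arrays against 3 allow, and 0.11 after Benjamini-Hochberg adjustment over the 23 pairs, so no pair could pass 0.05. Co-culture minus precursors, the same ratios changed by 0.39 for Snap25 to Snap23, 0.65 for Napb to Napa, 0.68 for Rims1 to Rims2 and -0.06 for Slc17a7 to Slc17a6.

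**Figure D4:**
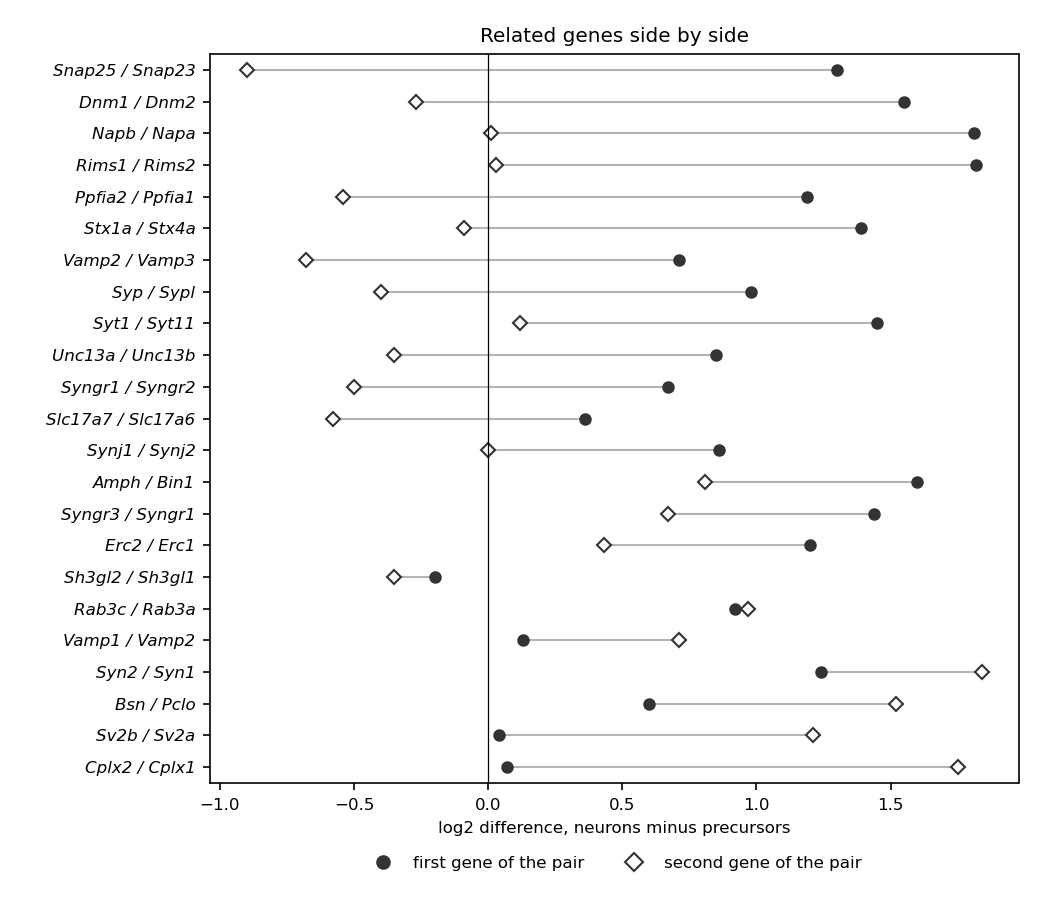
Log2 differences, neurons minus precursors, of both genes of each of 23 related pairs, with a filled circle for the first gene and an open diamond for the second; a ratio such as Snap25 to Snap23 changes by the distance between the symbols. The longest distance is that of Snap25 (1.30) and Snap23 (-0.90), and Rab3c and Rab3a lie closest together.

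How far the co-culture stood between the separate cultures was measured on the linear scale, by taking the difference between neurons and precursors as the whole way and that between co-culture and precursors as the part covered. In the 19 members at least 2-fold higher in neurons the median was 24.9% of the way, from 17.7% for Snap25 to 34.0% for Doc2b. In the other 682 tested genes at least 2-fold higher in neurons, with the listed presynaptic genes left out, the median was 22.2% and the middle 50% of genes lay between 18.9% and 25.9%. The upper end of that range is the 75th percentile of these other genes. Snap25 was below the range, and 9 of the 19 members were above it. From the group of calcium sensors and related synaptotagmins they were Syt1 (28.4%), Syt4 (31.4%), Syt5 (29.3%) and Doc2b (34.0%). The rest were the vesicle proteins Syn1 (27.0%), Sv2a (27.5%) and Syngr3 (30.3%), Cplx1 (28.1%) and Ppfia2 (31.0%). In the active zone Rims1, Pclo and Erc2 were at 22.7%, 19.1% and 19.6%, and the 3 retrieval genes Dnm1, Amph and Snap91 lay between 19.9% and 23.7%. This is a description with no test.

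**Figure D5:**
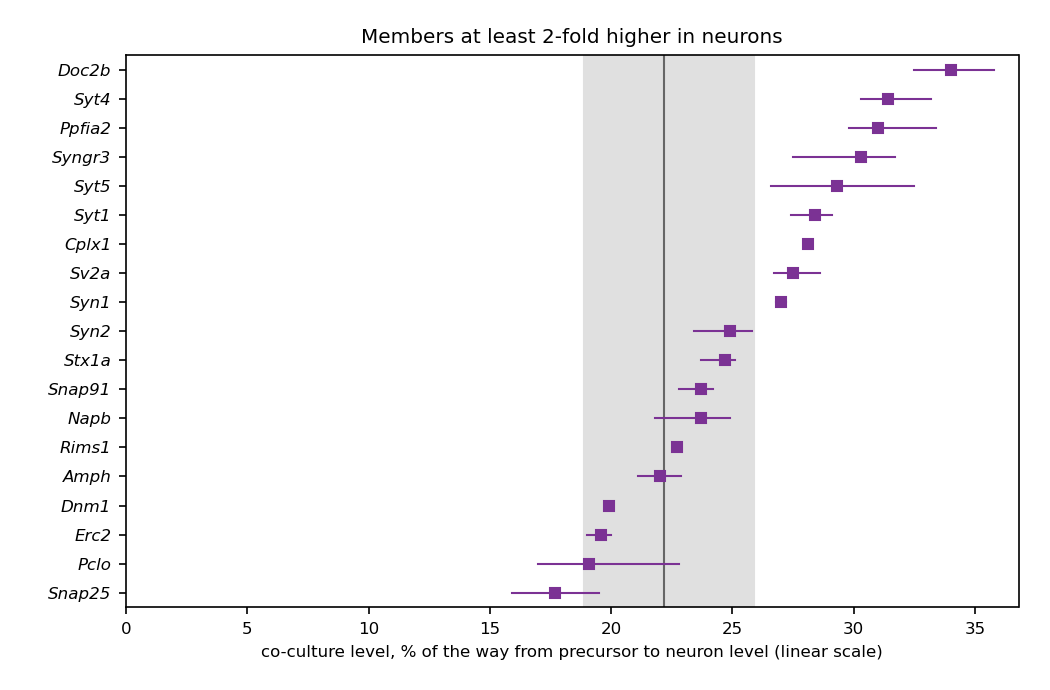
Position of the co-culture between precursors (0%) and neurons (100%) on the linear scale for the 19 members at least 2-fold higher in neurons; squares are means and bars the range of 3 co-culture arrays. The line and band mark the median (22.2%) and the middle 50% (18.9% to 25.9%) of the other genes with a rise of 2-fold or more. The members run from Snap25 at 17.7% to Doc2b at 34.0%.

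The co-culture was also compared with the level that a plain mixture of the 2 separate cultures would give. The neuron share of its RNA was not measured and was taken as 16.6% ± 1.08 (SD, n = 3), the mean of 2 estimates. These were 22.6% ± 1.18 (SD, n = 3) from 105 genes that neurons held at 4-fold or more above precursors and 10.5% ± 2.21 (SD, n = 3) from 109 genes with the opposite difference. None of them was a listed presynaptic gene. The estimates assume that the levels of these genes within each cell type were those of the separate cultures. The SD is that between co-culture arrays and does not cover the gap between the 2 estimates. Against that mixture 3 members were higher (Cplx1, Syt4 and Syngr3) and 0 were lower, where 0.361% of all tested genes were called higher and 0.0307% lower. Without adjustment, limma's p was under 0.05 for 21 higher and 0 lower members, where it was for 6.97% and 1.30% of all tested genes. The share of 16.6% is below the 22.6% from genes high in neurons, so genes higher in neurons tend to lie above this mixture. Of the 40 members 32 were higher in neurons, against 28.0% of all tested genes, so the 2 sets are unlike in this respect. The log2 differences from the mixture were 0.26 for Cplx1 (SE 0.038), 0.31 for Syt4 (SE 0.047) and 0.24 for Syngr3 (SE 0.037), each with an adjusted p of 0.0342. With the mean of its 3 probe sets Syt4 differed by 0.08 (adjusted p = 0.809). Syt5 had 0.26 with an adjusted p of 0.0563, and the median of the members was 0.12 against 0.03 for all tested genes. With the share from genes high in neurons the median of the members was 0.04, against 0.03 for all tested genes. The number called rested on the share, with 0 members at the share from genes high in neurons and 15 at that from genes high in precursors, where 2.49% of all tested genes were called higher. It was also 0 with the replicate number as a block and 0 to 1 when any 1 array was left out.

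Equal values between arrays bear on these calls. At least 2 of the 3 co-culture arrays held exactly the same value in 11.6% of tested genes, against 2.54% for the neuron arrays and 5.66% for the precursor arrays, and in 7 members (Stx1a, Cplx1, Rims1, Ppfia2, Rab3c, Syngr3 and Dnm1) against 0 members for neurons and 0 for precursors. Cplx1 and Syngr3 are 2 of the 3 genes called against the mixture, and Cplx1 was equal on all 3 co-culture arrays. The median SD of the members was 0.034 in the co-culture, 0.061 in neurons and 0.075 in precursors, and that of all tested genes 0.055 in the co-culture, 0.083 in neurons and 0.066 in precursors. With the spread taken from neurons and precursors alone, 0 members were called against the mixture (adjusted p = 0.184 for Cplx1, and 0.171 for both Syt4 and Syngr3), and 22 of the members were called higher than precursors in place of 25. With that spread 706 of the 13012 tested genes were called higher than precursors in place of 1069, and 10 above the mixture in place of 47. The cause of the equal values was not tested.

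A list of 73 other presynaptic genes, also chosen with earlier results of these data known, held 68 with a named probe set and 65 tested. Of the 65, 44 were higher in neurons than in precursors and 10 were lower, where 28.0% and 35.2% of all tested genes were. Their median log2 difference was 0.39, against 0.97 for the 40 members and -0.02 for all tested genes. In the co-culture 21 were higher than precursors (13 without co-culture replicate 2) and 0 were lower, where 8.22% and 0.200% of all tested genes were. Against the mixture none passed, where 0.361% of all tested genes were called higher and 0.0307% lower. At an unadjusted p under 0.05 in limma 9 were above it and 1 was below, against 6.97% and 1.30% of all tested genes. Among active-zone genes, Rimbp2, which links RIM proteins to calcium channels, was 3.60-fold higher in neurons (adjusted p = 1.78e-08), Lin7a 2.80-fold and Apba1 (Mint1) 2.64-fold. Among priming and sensor genes, Rab3b was 2.83-fold, Rph3a (rabphilin) 2.68-fold and Cadps2, a priming factor of dense-core vesicles, 2.61-fold higher. Among vesicle proteins, Syn3 (synapsin III) was 3.02-fold, the transporter Slc6a17 2.81-fold and Sncb (beta-synuclein) 2.50-fold higher, and among retrieval genes Dnm3 was 3.09-fold, the clathrin light chain Cltb 2.74-fold and Sh3gl3 1.96-fold higher. Of the other SNARE and fusion genes, Stxbp5 (tomosyn) was 1.66-fold higher, whereas Snap23 was 1.87-fold lower (adjusted p = 3.09e-06) and Vamp3 (cellubrevin), a SNARE of recycling endosomes in many cell types, 1.60-fold lower (adjusted p = 9.48e-05). In the co-culture Snap23 and Vamp3 differed from precursors by -0.05 (adjusted p = 0.824) and 0.03 (adjusted p = 0.929), and neither passed the test.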

How the data were processed

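RNA of 9 cultures (3 co-cultures, 3 of neurons and 3 of precursors) was measured on mouse gene arrays from 100 ng of total RNA each, with a whole-transcript labelling kit, per the labels' protocols. The authors deposited 1 log2 value for each probe set and array, for which the submitters' processing notes name RMA and oligo with no version. In general, RMA subtracts background, quantile-normalizes the arrays and reduces the probes of a set to 1 value by a robust fit. Scanner files were not analysed here. The array medians were 6.75 to 6.79. Arrays have no read depth, so their number limits the precision. The fold of a dim gene may be understated.

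The table held 41345 probe sets, of which 23521 had 1 gene symbol, 1814 had several and 16010 had none, and only those with 1 symbol were used; 23328 matched the mouse gene table of GRCm38.p6 by gene number. A probe set with Vamp1 among several symbols was not used. One limma model (version 3.58.1, R 4.3.3, lmFit and eBayes) was fitted to the 3 groups over 13012 genes with 6 residual degrees of freedom, two-sided, with Benjamini-Hochberg adjustment and a threshold of 0.05. The predicted mixture used a contrast specific to each gene and takes the neuron share as known. Nothing says which embryos or days a replicate number stands for, so p-values measure the spread between these arrays. Same-numbered co-culture and precursor arrays deviated from their group means together (correlations across genes of 0.345, 0.30 and 0.161). All 3 were above 0.1, the cut-off used here, which makes them pairs. The main fit has no term for these pairs, and the replicate block was fitted as an alternative. For neurons the correlations were 0.00431, 0.134 and -0.148 with precursors and -0.00511, 0.268 and 0.17 with the co-culture, which makes none.

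The members and lists were chosen with earlier results of these data known, as was the rule for named genes: all 40 members with their values, up to 3 other presynaptic genes per list with the largest difference between neurons and precursors, and up to 3 of the brightest markers per list. Further markers are named where they define a cell type. The scripts were tested on simulated data. Alternatives changed the filter on dim genes, the normalization, the array weights, the replicate block, the variance trend, the probe sets, the samples in the fit and the share. Those with the spread of the separate cultures and with single probe sets were chosen after seeing the data.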

Additional observations from a re-analysis of the deposited data

How the results depend on the processing

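The direction and call of 32 of the 35 members called between neurons and precursors, and of 21 of the 25 called between co-culture and precursors, held in every setting in which the gene was tested, out of 21 settings, of which the 75th-percentile filter tested 35 members and single probe sets 5 genes. Leaving out 1 array gave 31 to 32 members higher and 3 to 4 lower in neurons than in precursors, 22 to 26 higher and 0 lower in the co-culture than in precursors, and 3 higher and 30 lower in the co-culture than in neurons. The count of 3 members above the predicted mixture was 0 with no filter, 0 with cyclic loess, 0 with the replicate block, 0 with the spread of the separate cultures, 0 with the share from genes high in neurons, 5 with array weights, 5 with an intensity trend, 15 with the share from genes high in precursors, and 0 to 1 without 1 array. Over all tested genes the count above the mixture was 47 in the main fit. In the settings just named, in that order, it was 19 (of 22180 genes), 32, 29, 10, 9, 95, 80, 324, and 9 to 48 without 1 array. The member counts are to be read beside these. With the replicate block Nsf lost its call in the co-culture (adjusted p = 0.0764) and Unc13a gained one (0.0348); the block changed no other member's call between 2 cultures. Of the other presynaptic genes, 2 were above the mixture with array weights and 7 with the share from genes high in precursors, in place of 0, and 0 to 1 without 1 array. Against precursors 1 was lower in the co-culture, in place of 0, with array weights, with the replicate block and with only the 2 groups compared, and 0 to 1 without 1 array, while 13 to 24 were higher, in place of 21, with 13 without co-culture replicate 2. Among members that did not pass, Cplx2 turned to 0.01 (co-culture minus precursors) with centred arrays and 0.01 with array weights, and ran from -0.09 to 0.07 without 1 array; between neurons and precursors it ran from -0.01 to 0.17. Without 1 array, Rims2 ran from -0.06 to 0.04 in the co-culture and -0.02 to 0.09 in neurons against precursors, Sv2b from -0.03 to 0.08 in neurons against precursors, and Vamp1 from -0.02 to 0.08 and Sh3gl2 from -0.04 to 0.15 in the co-culture against neurons. With cyclic loess that Sh3gl2 value was -0.04. Syt11 (-0.13, adjusted p = 0.0155) and Sv2b (-0.18, adjusted p = 0.0489) then passed as lower in the co-culture than in neurons. With the mean of its probe sets Sh3gl2 was called higher in neurons than in precursors (0.66, adjusted p = 0.000267). By that mean it differed by 0.06 between co-culture and precursors (adjusted p = 0.875) and by -0.61 between co-culture and neurons (adjusted p = 0.000565). Its probe set 2 by brightness gave 1.06, 0.32 and -0.74 for these, and its dimmest 1.14, 0.01 and -1.12. Its brightest probe set passed as lower in neurons with array weights (-0.26, adjusted p = 0.0235). It also did so without neuron replicate 2 (-0.31, adjusted p = 0.00739) or precursor replicate 1 (-0.28, adjusted p = 0.0363). The causes were not tested.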
